A study of Mus musculus with 4 samples.

Results

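The genes of the unfolded protein response and the integrated stress response were followed through 4 poly(A) RNA libraries of mouse colon tumour cells. 3 libraries came from lines mutated with the alkylating agent ENU (N-ethyl-N-nitrosourea), which leaves mainly point mutations. These lines are called M8, M32 and M83, and the fourth library came from the control cells. All were grown in RPMI medium, with 1 column of deposited counts each. The set was a list of 37 gene symbols out of the 41457 rows of the table. It was chosen with earlier results of these data known, as were the role groups and further pathway genes below. Of the 37 symbols, 36 had a row under exactly that name. The remaining gene, Ddit3, is split over 2 rows in the table, and its main row (ENSMUSG00000025408) is used here. After the filter on low counts 36 of the 37 members were among the 13576 genes tested, and Atf3 was the exception. Each line has a single column of counts, called a library here, although the labels speak of triplicates. The mutated genes, the name of the parent cell line and whether the control was the direct parent culture are not stated in the labels.

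Cells meet unfolded proteins in the endoplasmic reticulum (ER) through the sensors IRE1 (encoded by Ern1), PERK (Eif2ak3) and ATF6. IRE1 splices the mRNA of Xbp1, and the XBP1 and ATF6 proteins switch on genes for chaperones and for the disposal of misfolded proteins. PERK is also a kinase of the translation factor eIF2 alpha, a target it shares with the amino acid sensor GCN2, and phosphorylated eIF2 alpha favours translation of ATF4. ATF4 drives genes for amino acid import, serine and asparagine synthesis and mitochondrial one-carbon metabolism, which many tumour cells keep high.

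The promoters of some members hold DNA letters known from these branches. Binding sites of ATF4 with its C/EBP partners, called CARE, were searched as TGATGNAA, and the ER stress element (ERSE) as CCAAT, 9 bases of any kind and CCACG, each on both strands from 250 bases before to 50 bases after the start site. Of the 37 members, 32 matched a promoter in RefSeq (GRCm38.p6). CARE letters were in the promoters of 7 of these 32 members, against 4.51% of all 27025 genes, and ERSE letters in 6 of 32, against 0.137% of all genes. The ERSE letters lay in 5 of the 8 matched chaperone genes, and CARE letters in 5 of the 10 matched stress-induced factor genes but in 1 of the 7 matched amino acid and one-carbon genes (Asns). Of the 32 matched members, 19 held none of the motifs searched, and Herpud1 held CARE letters together with a second ER stress element. A match describes letters and not binding. The members were listed as genes of these branches, so the comparison with all genes describes the list and tests nothing. The sequences below run 5′ to 3′ along the gene, with the motif in capitals. They are the promoters of the 4 CARE genes that differed most from control in any line and of the main ER chaperone gene and the ERSE gene that differed most between lines.
Asns, chr6:7693160-7693459, minus strand, CARE: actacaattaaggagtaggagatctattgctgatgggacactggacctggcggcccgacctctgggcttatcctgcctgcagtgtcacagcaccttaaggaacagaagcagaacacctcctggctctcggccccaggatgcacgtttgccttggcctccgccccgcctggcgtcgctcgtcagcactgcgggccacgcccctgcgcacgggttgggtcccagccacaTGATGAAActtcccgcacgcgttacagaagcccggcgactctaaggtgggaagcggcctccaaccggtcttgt
Trib3, chr2:152344011-152344310, minus strand, CARE on the reverse strand: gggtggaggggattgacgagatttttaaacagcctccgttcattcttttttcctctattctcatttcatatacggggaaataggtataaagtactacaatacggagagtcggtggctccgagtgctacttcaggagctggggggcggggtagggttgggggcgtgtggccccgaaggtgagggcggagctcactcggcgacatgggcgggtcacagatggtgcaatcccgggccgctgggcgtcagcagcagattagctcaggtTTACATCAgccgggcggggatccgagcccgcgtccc
Vldlr, chr19:27216770-27217069, plus strand, CARE on the reverse strand: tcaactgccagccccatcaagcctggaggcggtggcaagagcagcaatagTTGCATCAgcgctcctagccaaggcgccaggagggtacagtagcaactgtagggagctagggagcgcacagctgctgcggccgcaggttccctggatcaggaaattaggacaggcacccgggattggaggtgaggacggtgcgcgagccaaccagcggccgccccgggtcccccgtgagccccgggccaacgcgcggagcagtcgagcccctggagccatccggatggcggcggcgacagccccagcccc
Chac1, chr2:119350992-119351291, plus strand, CARE on the reverse strand: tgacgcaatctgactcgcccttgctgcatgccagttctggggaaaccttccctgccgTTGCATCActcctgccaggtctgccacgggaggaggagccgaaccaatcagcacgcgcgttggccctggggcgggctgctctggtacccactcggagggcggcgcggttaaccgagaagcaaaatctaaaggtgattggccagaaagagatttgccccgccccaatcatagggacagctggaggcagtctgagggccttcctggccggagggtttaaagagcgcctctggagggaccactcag
Hspa5, chr2:34771840-34772139, plus strand, ERSE: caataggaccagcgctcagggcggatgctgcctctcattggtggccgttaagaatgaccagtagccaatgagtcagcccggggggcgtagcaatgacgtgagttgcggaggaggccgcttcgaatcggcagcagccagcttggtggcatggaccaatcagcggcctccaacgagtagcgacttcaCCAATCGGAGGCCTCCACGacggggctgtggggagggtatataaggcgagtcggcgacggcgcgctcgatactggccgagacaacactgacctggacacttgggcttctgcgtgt
Creld2, chr15:88819396-88819695, plus strand, ERSE on the reverse strand: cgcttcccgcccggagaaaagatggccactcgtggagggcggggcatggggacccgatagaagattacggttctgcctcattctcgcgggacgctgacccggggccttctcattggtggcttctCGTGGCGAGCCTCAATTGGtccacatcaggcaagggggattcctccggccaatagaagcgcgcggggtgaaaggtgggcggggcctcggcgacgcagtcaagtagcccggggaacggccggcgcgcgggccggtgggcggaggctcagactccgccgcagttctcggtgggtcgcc

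The total count was between 25818148 (control) and 28879954 (M8), and the tested members had between 415 (Dnajb9 in M8) and 67416 (Hsp90b1 in M8) counts per library. Levels are given in CPM, a gene's counts divided by its library's total and brought to a common scale, with TMM factors that correct for library composition. Of 11 colon epithelium markers 4 passed the filter. Epcam, Cdx2 and Muc2 had 0 counts in every library and Cdh1 at most 4, so the defining genes of colon epithelium were absent, although the keratin genes Krt18 and Krt20 were counted. The summed level of the 11 was 180, 73.8 and 160 CPM in M8, M32 and M83, against 104 CPM in control. Of 8 mesenchymal markers, Vim among them, 7 passed, with summed levels of 7421, 8502 and 7821 CPM in M8, M32 and M83, against 6750 CPM for control. Vim alone had 4362, 4789 and 5072 CPM, against 4526, and Col1a2 1843, 1906 and 1520, against 1704. The sum therefore hides larger differences in other markers. Col3a1 had 272, 479 and 70.8 CPM in the same order, against 68.5, and Pdgfrb 43.9, 86.3 and 19.9, against 16.6. Col1a1 had 888, 1232 and 1126 CPM, against 430 in control. The part of cell state in the results was not tested. Of the 6 leukocyte markers 1 passed the filter, with a summed level of at most 0.848 CPM, and among the 4 plasma cell markers Jchain, Mzb1 and Ighm had at most 2 counts, while Sdc1, which other cells also express, passed. In bulk RNA fewer cells of a type and less RNA per cell cannot be told apart.

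Set against control as 1 group of 3 lines, no stress response gene passed the test. In edgeR's quasi-likelihood test with Benjamini-Hochberg adjustment, 0 of 36 tested members passed an adjusted p under 0.05, against 0.00737% of all tested genes. DESeq2 also called 0. It listed 1 member at an unadjusted p under 0.05, and its share over all genes at that level is not given here. At an unadjusted p under 0.05 edgeR listed 448 of the 13576 tested genes and 1 of the 36 tested members, Ddit3. That gene averaged 26.2 CPM ± 1.25 in the lines (SD, n = 3), against 16.8 CPM in the single control library. The fitted log2 difference was 0.64 (SE 0.246, edgeR unadjusted p = 0.0374, adjusted p = 0.9998). The test has 2 residual degrees of freedom and measures the spread between mutant lines, which are different mutants. Chac1 was next, with a log2 fold change of 0.59 (SE 0.259, edgeR unadjusted p = 0.0585). All 3 lines were above control in 13 of 36 members, against 23.3% of tested genes, and below it in 5, against 21.3%. In the other members the lines lay on both sides of control, so each line is described on its own, with no test. Intervals on ratios are exact 95% binomial (Clopper-Pearson) intervals, which cover counting error only and not the variation between cultures.

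**Figure D1:**
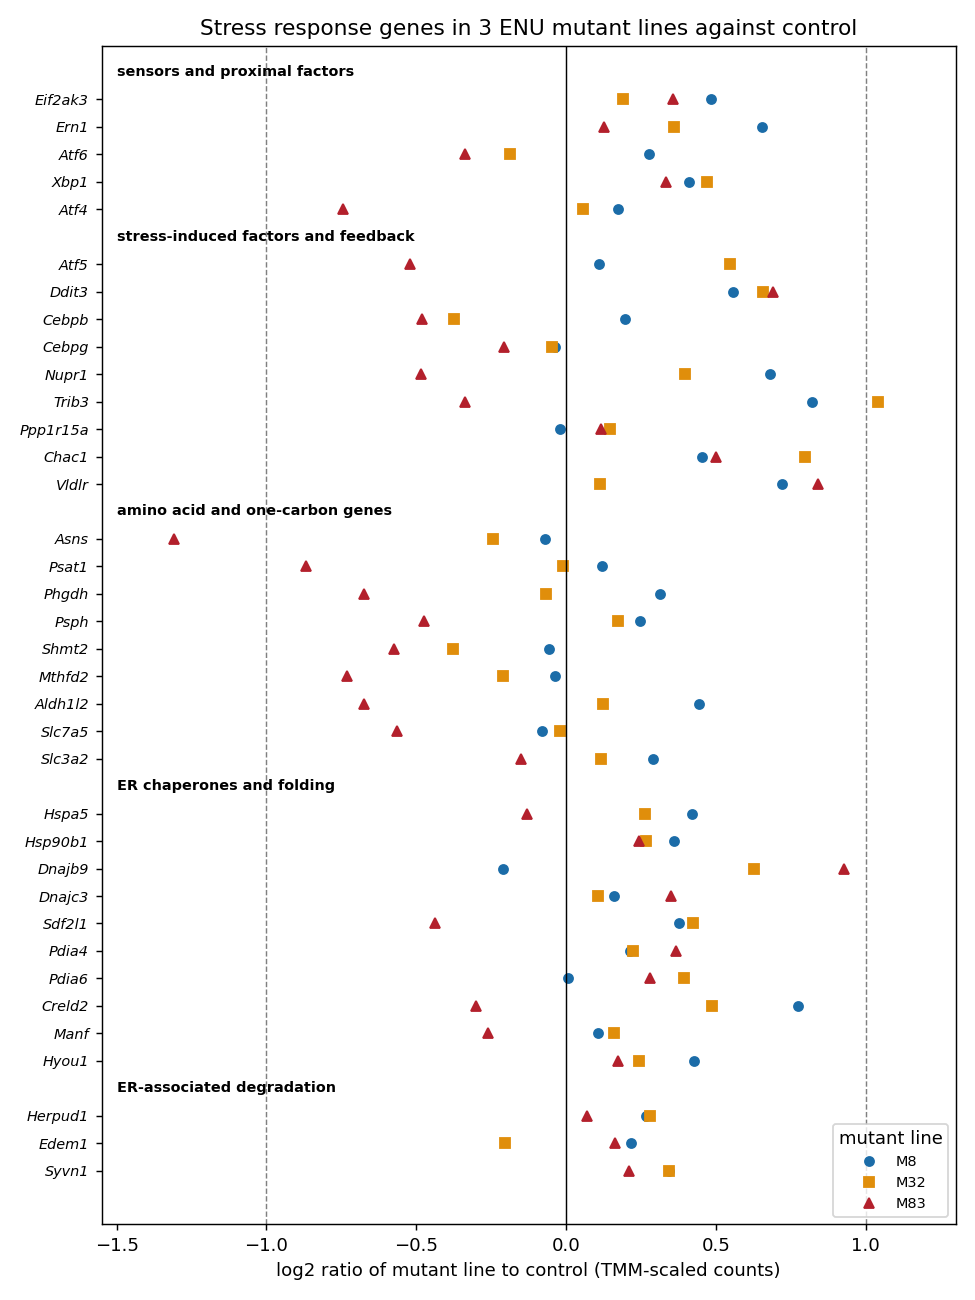
Each row is a member that passed the filter, grouped by role, and the x axis is the log2 ratio of a mutant line to control after TMM scaling, with 1 point per line and dashed lines at 2-fold. The M83 triangles lie left of 0 for all 9 amino acid and one-carbon genes, and only Asns in M83 and Trib3 in M32 lie beyond a dashed line.

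By size alone, few members differed much from control. The rule asked for at least 2-fold, 50 or more counts in the higher library and an interval that left out 1. M8 had 0 members higher and 0 lower by this rule, against 2.97% and 1.64% of tested genes. M32 had 1 higher, Trib3, against 3.88%, and 0 lower, against 0.921%. M83 had 0 higher, against 4.17%, and 1 lower, Asns, against 1.02%. Smaller differences ran mostly upward in M8 and M32 and were close to evenly split in M83. In M8, 29 of 36 members were above control, against 52.4% of tested genes, and 7 below, against 47.4%, and the median log2 ratio was 0.27 against 0.02 for all tested genes. In M32, 26 of 36 were above control, against 49.6%, and 10 below, against 50.1%, with a median of 0.18 against 0.00. In M83, 16 of 36 were above control, against 50.8%, and 20 below, against 49.0%, with a median of -0.18 against 0.01. M83 was the lowest of the 4 libraries in 20 of 36 members, against 27.4% of tested genes, and M8 the highest in 17, against 27.2%. Control was the lowest in 13, against 23.9%, M8 in 2, against 26.4%, and M32 in 1, against 22.3%. M32 was the highest in 9, against 23.1%, M83 in 5, against 28.4%, and control in 5, against 21.3%.

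The clearest pattern was in the amino acid and one-carbon genes. All 9 had their lowest level in M83, against 27.4% of tested genes. The group was chosen with earlier results of these data known, so this count describes it and tests nothing. Asns (GRCm38, chr6:7675169-7693254, minus strand) encodes asparagine synthetase, and its CARE letters lie 23 bases before the start site. It had 394 CPM in M8, 350 in M32 and 167 in M83, against 414 in control. M83 thus held less than each of the others, at 0.404 times control (interval 0.390 to 0.418), while M8 and M32 were below control by less.

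The serine synthesis genes followed in order of the pathway. Phgdh, the entry enzyme, had 885 CPM in M8, 680 in M32 and 446 in M83, against 712 in control. Psat1, the aminotransferase of the next step, had 801 CPM in M8, 733 in M32 and 404 in M83, against 738 in control. Psph, the phosphatase that releases serine, had 106 CPM in M8, 101 in M32 and 64.3 in M83, against 89.4 in control. In all of these M83 was lowest and M8 highest. The ratio of M83 to control was 0.627 for Phgdh (interval 0.613 to 0.641), 0.548 for Psat1 (0.535 to 0.561) and 0.719 for Psph (0.676 to 0.765). Phgdh is uncertain, because 47.8% of its 50-base words also occur in other annotated transcripts, mostly the pseudogene models Gm7901, Gm9347 and Gm8341. Of the exon bases of Psph, 10.4% overlap Cct6a on the opposite strand. Cct6a had 26339 counts in M8, 20500 in M32 and 21564 in M83, against 22040 in control.

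The mitochondrial one-carbon enzymes take the carbon unit from serine. Shmt2, which splits serine into glycine and a one-carbon unit, had 557 CPM in M8, 447 in M32 and 390 in M83, against 580 in control. Mthfd2, the dehydrogenase and cyclohydrolase, had 286 CPM in M8, 254 in M32 and 177 in M83, against 294 in control. Aldh1l2, the mitochondrial formyltetrahydrofolate dehydrogenase, had 165 CPM in M8, 132 in M32 and 75.9 in M83, against 121 in control. For Shmt2 and Mthfd2 the 3 lines all lay below control, whereas Aldh1l2 was above control in M8 and M32 and below it in M83. Aldh1l2 was 0.461 times as high in M83 as in M8 (interval 0.438 to 0.485). Of its words, 13.6% are shared, mainly with the gene D10Wsu102e on the opposite strand, which had 3048 counts in M8, 2267 in M32 and 1981 in M83, against 2624 in control.

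Slc7a5 and Slc3a2 encode the light and heavy chains of the large neutral amino acid transporter LAT1-4F2hc. Slc7a5 had 615 CPM in M8, 640 in M32 and 439 in M83, against 649 in control. Slc3a2 had 382 CPM in M8, 339 in M32 and 282 in M83, against 313 in control. The light chain was thus further below control in M83, at 0.677 times (interval 0.661 to 0.693), than the heavy chain, at 0.902 times. Slc3a2 and Psat1 lie on chromosome 19, as do Vldlr and Syvn1. The 458 tested genes there had a median log2 ratio to control of 0.19 in M8 and 0.14 in M32. In these lines the log2 ratios were 0.29 and 0.12 for Slc3a2, and 0.12 and -0.01 for Psat1. The part of the chromosome in them was not tested. For the whole group M8 had a median log2 ratio to control of 0.12, M32 one of -0.02 and M83 one of -0.67, against 0.01 for all tested genes in M83. The group's place below control in M83, 9 of 9 against 49.0% of tested genes, held with library size alone and with DESeq2's size factors.

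**Figure D2:**
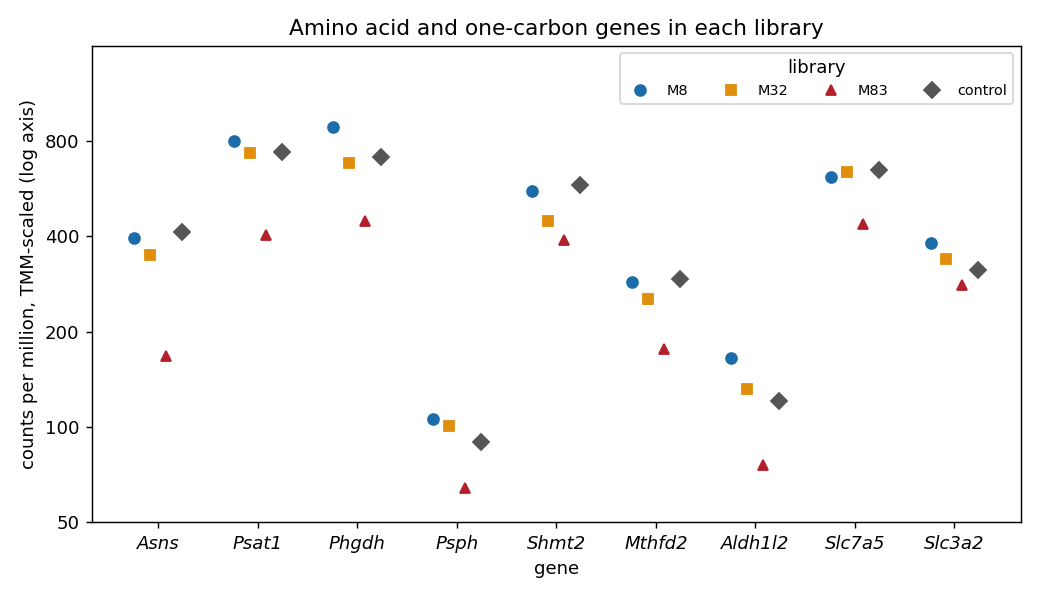
The y axis, on a log scale, is the TMM-scaled level in CPM of the 9 amino acid and one-carbon genes in each library, with 1 point per library. M83 is the lowest point for every gene, from 64.3 CPM for Psph to 446 CPM for Phgdh.

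Among the sensors and proximal factors, Atf4 (chr15:80255184-80257541, plus strand) shared the low level in M83. It had 585 CPM in M8, 538 in M32 and 309 in M83, against 518 in control, a ratio of 0.597 in M83 (interval 0.581 to 0.613). ATF4 protein depends mainly on translation, which these RNA counts do not measure. Among the ER sensors, Atf6 was also lowest in M83, while Eif2ak3 and Ern1 were lowest in control.

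Eif2ak3, the PERK gene, had 23.1 CPM in M8, 18.9 in M32 and 21.2 in M83, against 16.5 in control. Ern1, the IRE1 gene, had 103 CPM in M8, 84.4 in M32 and 71.9 in M83, against 65.8 in control. Xbp1 had 46.3 CPM in M8, 48.3 in M32 and 43.9 in M83, against 34.8 in control. All 3 genes were above control in every line, where 23.3% of tested genes were, though not past the 2-fold rule. Ern1 and Xbp1 lie on chromosome 11, whose 1045 tested genes had a median of 0.12 for log2 M83 over control. The log2 ratios in M83 were 0.13 for Ern1 and 0.33 for Xbp1, and the part of the chromosome in them was not tested. Gene counts do not separate spliced from unspliced Xbp1. Atf6 had 186 CPM in M8, 135 in M32 and 121 in M83, against 153 in control, so it was above control in M8 alone. Its ratio to control in M83 was 0.791 (interval 0.756 to 0.828). Atf6 lies on chromosome 1, whose 812 tested genes had a median of 0.19 for log2 M8 over control, against 0.28 for Atf6 itself. The part of the chromosome in this value was not tested.

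The transcription factors and feedback genes that stress induces lay partly below and partly above control in M83. Trib3, a pseudokinase gene induced by ATF4 and CHOP, had 73.4 CPM in M8, 85.5 in M32 and 32.9 in M83, against 41.5 in control. It was 2.06 times control in M32 (interval 1.91 to 2.22) and 0.792 times control in M83 (0.724 to 0.865). Between libraries it differed most of all tested members, by 2.60 times from the lowest to the highest library, against a median of 1.55 over the members.

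Nupr1, a small chromatin-associated stress factor, had 46.5 CPM in M8, 38.2 in M32 and 20.7 in M83, against 29.0 in control. Atf5, a bZIP factor of the ATF4 branch, had 503 CPM in M8, 680 in M32 and 324 in M83, against 466 in control. Cebpb, a C/EBP partner of ATF4, had 139 CPM in M8, 93.6 in M32 and 86.9 in M83, against 121 in control. Each of these was lowest in M83, but the highest library was M32 for Atf5 and M8 for Nupr1 and Cebpb. Of the exon bases of Cebpb, 20.7% overlap Tmem189 on the opposite strand. Cebpg, another C/EBP partner, stayed between 80.0 CPM in M83 and 92.3 CPM in control.

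Other genes of the same branch were above control in M83. Ddit3, which encodes CHOP, a factor linked to cell death under lasting ER stress, had 24.8 CPM in M8, 26.5 in M32 and 27.2 in M83, against 16.8 in control. The smaller row Ddit3_2 (ENSMUSG00000116429), which overlaps it, had 116 counts in M8, 84 in M32 and 126 in M83, against 78 in control. Reads of the overlap cannot be told apart between the rows. Chac1, a glutathione-degrading enzyme gene, had 33.9 CPM in M8, 43.1 in M32 and 35.1 in M83, against 24.8 in control. Vldlr, a lipoprotein receptor gene, had 254 CPM in M8, 167 in M32 and 276 in M83, against 154 in control.

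For these genes every line was above control, and in M83 the ratio was 1.62 for Ddit3 (interval 1.44 to 1.83), 1.42 for Chac1 (1.28 to 1.57) and 1.79 for Vldlr (1.73 to 1.86). CARE letters occurred in genes on both sides of control in M83, with Asns, Trib3 and Nupr1 below and Chac1 and Vldlr above. Herpud1, which also holds them, was close to control in M83, at 1.05 times (interval 0.979 to 1.12). Ppp1r15a, which encodes the phosphatase subunit GADD34 that reverses eIF2 alpha phosphorylation, was nearly level, from 117 CPM in M8 to 131 in M32, with 118 in control. Atf3 was close to absent, with 1 count in M8, 0 in M32 and 0 in M83, against 2 in control, although its promoter also holds CARE letters. Counts of 0 leave room for up to 3 counts, or 0.104 CPM in M83.

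The ER chaperone and folding genes were mostly above control in M8 and M32, and less clearly so in M83. In M8 9 of 10 genes were above control, against 52.4% of tested genes (median log2 ratio 0.29). In M32 it was 10 of 10, against 49.6% (0.26), and in M83 6 of 10, against 50.8% (0.21). The highest single ratios were 1.91 for Dnajb9 in M83 and 1.71 for Creld2 in M8. The most abundant members per exon length were Hsp90b1 (GRP94) and Hspa5 (BiP), the main chaperones of the ER lumen. Per kilobase of exon, Hsp90b1 had 587 CPM in M8, 550 in M32 and 541 in M83, against 457 in control, and Hspa5 473, 424 and 323 in the same lines, against 353 in control. Hspa5 was 1.34 times control in M8 (interval 1.32 to 1.36) and 0.913 times in M83 (0.900 to 0.926), so M83 was its lowest library, while Hsp90b1 was lowest in control.

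Creld2 and Sdf2l1, which encode small ER proteins induced with BiP, and Manf, a secreted ER stress protein gene, shared the place of Hspa5 in M83. Creld2 had 158 CPM in M8, 130 in M32 and 74.9 in M83, against 92.3 in control. Sdf2l1 had 34.7 CPM in M8, 35.8 in M32 and 19.7 in M83, against 26.7 in control. Manf had 199 CPM in M8, 207 in M32 and 154 in M83, against 185 in control. These were above control in M8 and M32 and below it in M83. Creld2 and Atf4 lie on chromosome 15, whose 552 tested genes had a median log2 ratio to control of 0.20 in M8 and -0.19 in M83. Sdf2l1 lies on chromosome 16, whose 397 tested genes had a median of -0.53 for log2 M83 over control, against -0.44 for Sdf2l1 itself. The part of the chromosome in this value was not tested.

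Dnajb9, Dnajc3, Pdia4, Pdia6 and Hyou1 were above control in M83. Dnajb9 (ERdj4), a co-chaperone gene known as an XBP1 target, had 14.6 CPM in M8, 26.1 in M32 and 32.2 in M83, against 16.9 in control. It was 1.91 times control in M83 (interval 1.70 to 2.14) and 2.21 times as high in M83 as in M8 (1.97 to 2.49). Creld2 had the opposite order, at 0.475 times as high in M83 as in M8. Dnajb9 and the disulfide isomerase gene Pdia6 lie on chromosome 12, whose 474 tested genes had a median of -0.52 for log2 M8 over control. In M8 their own log2 ratios were -0.21 and 0.01, and the part of the chromosome in them was not tested.

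Pdia4, another disulfide isomerase gene, had 287 CPM in M8, 289 in M32 and 319 in M83, against 247 in control. Pdia6 had 383 CPM in M8, 501 in M32 and 464 in M83, against 381 in control. Dnajc3, the co-chaperone gene that also encodes the PERK inhibitor p58IPK, had 165 CPM in M8, 159 in M32 and 188 in M83, against 148 in control. Hyou1, a large ER chaperone gene, had 390 CPM in M8, 343 in M32 and 327 in M83, against 290 in control. Control was the lowest library for each of these 4 genes, and no 2 libraries differed by as much as 2-fold.

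The ER-associated degradation genes differed by small amounts. Herpud1, a scaffold of the degradation complex whose promoter holds CARE letters and the letters of the second ER stress element (ATTGG, any base, CCACG, with no overlap between the motifs), had 70.5 CPM in M8, 71.2 in M32 and 61.5 in M83, against 58.6 in control. Syvn1, the ubiquitin ligase HRD1, had 64.3 CPM in M8, 64.3 in M32 and 58.6 in M83, against 50.6 in control. Both were above control in every line, although the interval for Herpud1 in M83 (0.979 to 1.12) includes 1. Edem1, a lectin-like factor that passes misfolded glycoproteins on, had 130 CPM in M8, 96.6 in M32 and 125 in M83, against 111 in control, and was below control in M32. Edem1 lies on chromosome 6, as do Asns and Mthfd2, and the 652 tested genes there had a median of -0.24 for log2 M32 over control. The log2 ratios in M32 were -0.20 for Edem1, -0.24 for Asns and -0.21 for Mthfd2, and the part of the chromosome in them was not tested. For the 3 genes M8 had a median log2 ratio of 0.27, M32 one of 0.28 and M83 one of 0.16.

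**Figure D3:**
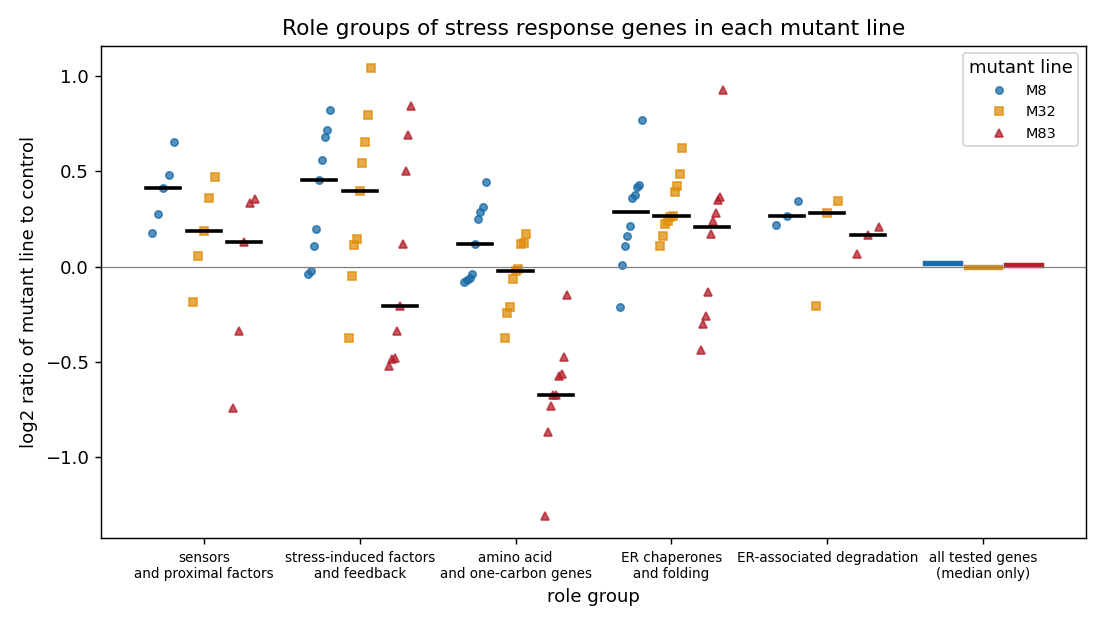
Points are the log2 ratios of single genes to control in M8, M32 and M83 by role group, black bars are group medians, and coloured bars at the right are the medians of all tested genes. The amino acid group has its median at -0.67 in M83, while the chaperone medians lie between 0.21 and 0.29 in the 3 lines.

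Set directly against each other, without the control, M83 stood apart from both other lines. Against M8, 5 members were at least 2-fold lower in M83 by the rule (Asns, Aldh1l2, Nupr1, Trib3 and Creld2), against 2.4% of tested genes, and 1 was higher (Dnajb9), against 4.08%. Against M32, 3 were lower in M83 (Asns, Trib3 and Atf5), against 2.56%, and 0 higher, against 2.57%. M8 against M32 gave 0 members in either direction, against 1.72% higher and 2.96% lower. Of the 36 members 8 were higher in M83 than in M8, against 49.9% of tested genes, and 28 were lower. In M83 over M32 7 were higher, against 50.3%, and 29 lower, against 49.6%. In M8 over M32 23 were higher, against 49.8%, and 13 were lower. All 9 amino acid genes were lower in M83 than in M8, with a median log2 ratio of -0.72, and lower than in M32, with a median of -0.61. The comparisons with M8 and M32 share the M83 library and are not independent of each other.

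Other genes of the pathway outside the 37 are given for context. A list of 80 such genes held 74 that passed the filter, and 0 of them passed in edgeR or in DESeq2. At an unadjusted p under 0.05 edgeR listed 2 of the 74, Crebrf and Stc2, against 448 of the 13576 tested genes. DESeq2 listed 3, and its share over all genes is not given here. M8 had 54 of the 74 above control, against 52.4% of tested genes (median log2 ratio 0.25), M32 44, against 49.6% (0.11), and M83 29, against 50.8% (-0.17). M83 was the lowest library in 39 of 74, against 27.4%. By the 2-fold rule 2 were higher in M8 (Stc2 and Lonp1), against 2.97% of tested genes, 1 was higher in M32 (Stc2), against 3.88%, and 0 in M83, against 4.17%, so these counts were at or below the background. Stc2, which encodes the secreted stress glycoprotein stanniocalcin, had 355 counts in M8, 447 in M32 and 248 in M83, against 147 in control. Lonp1, the mitochondrial matrix protease gene, had 9687 counts in M8, 7192 in M32 and 6175 in M83, against 4246 in control.

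That list held 13 cytosolic aminoacyl-tRNA synthetase genes, which charge tRNAs and include many ATF4 targets. Of these genes 11 had their lowest level in M83, against 27.4% of tested genes. They were grouped after their values were seen, so this count describes them and tests nothing. M8 had a median log2 ratio of 0.24 over them, M32 one of -0.06 and M83 one of -0.43. The exceptions were Wars on chromosome 12, lowest in M8, and Vars, lowest in control. Sars, the seryl-tRNA synthetase gene, had 15385 counts in M8, 10396 in M32 and 7837 in M83, against 10213 in control.

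**Figure D4:**
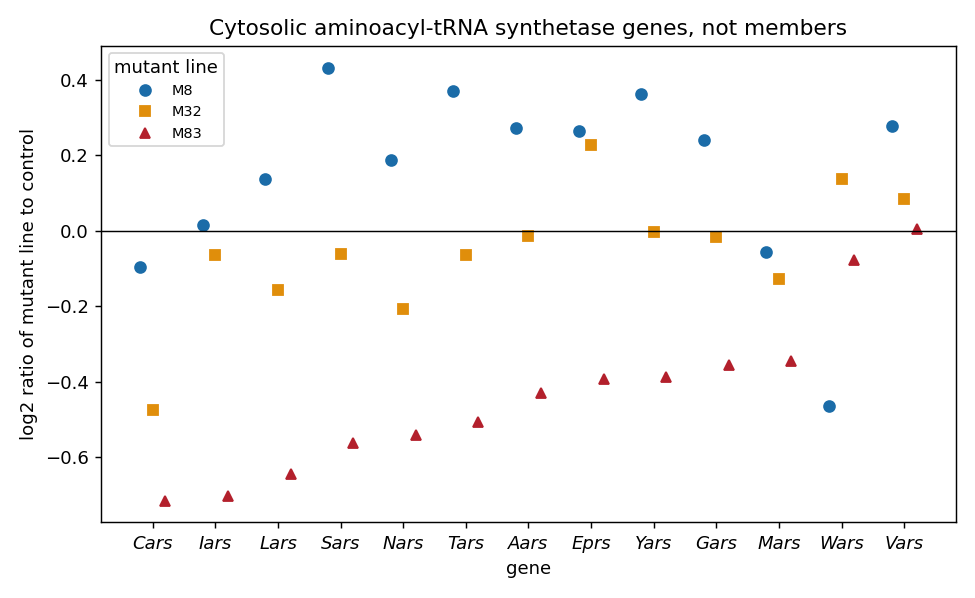
The y axis is the log2 ratio of each mutant line to control after TMM scaling for the 13 cytosolic aminoacyl-tRNA synthetase genes, ordered by their value in M83. M83 is below 0 for 12 genes and M8 above 0 for 10. The genes were grouped after their values were seen.

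Of the further non-member genes of amino acid metabolism named here, Gpt2, Pck2 and Slc7a11 were also below control in M83. The amino acid transporter gene Slc7a3 went the other way, on low counts. It had 18 counts in M8, 20 in M32 and 52 in M83, against 24 in control. Gpt2, an alanine aminotransferase gene, had 3537 counts in M8, 3361 in M32 and 1509 in M83, against 2487 in control. Pck2, the mitochondrial phosphoenolpyruvate carboxykinase gene, had 5028 counts in M8, 4313 in M32 and 2402 in M83, against 3651 in control. Slc7a11, the cystine transporter gene, had 1317 counts in M8, 966 in M32 and 709 in M83, against 1195 in control. Gpt2 and Pck2 thus lay above control in M8 and M32 and below it in M83.

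The stress regulator gene Ddit4 had 726 counts in M8, 769 in M32 and 237 in M83, against 419 in control, and was lowest in M83. Jdp2, a bZIP repressor gene on chromosome 12, had 681 counts in M8, 1526 in M32 and 825 in M83, against 1210 in control. Of the 12 genes with the largest log2 ratios, Ddit4, Jdp2, Slc7a11, Gpt2 and Pck2 had their largest value downward. The rest, Stc2 and Lonp1 among them, had it upward. The log2 ratio of Crebrf was 0.94 in M83, of Slc7a3 0.88 and of Wfs1, an ER membrane protein gene, 0.88 in the same line. Ero1lb reached 0.79 in M32 and Derl1 0.76 in M8.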

How the data were processed

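Poly(A) RNA of 3 ENU mutant lines and 1 control was sequenced on an Illumina NextSeq after NEBNext library preparation, per the labels' protocols. The authors deposited raw whole-number counts per gene, 1 column per sample. The labels speak of triplicates, so whether a column pools repeats is unknown. A p-value here reflects only the spread between the columns of the 3 mutant lines. That spread holds differences between mutants together with any technical variation, and these cannot be told apart. Per the submitters' processing notes reads were placed on GRCm38. Aligner, counting tool, annotation and strand setting are not stated there, so reads of overlapping genes cannot be told apart by strand.

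From the counts, edgeR 4.0.16 (R 4.3.3, TMM factors, filterByExpr, quasi-likelihood F-test, adjusted p under 0.05) compared the 3 lines with control over all 13576 genes, and SE is the log2 fold change divided by the root of F. Single lines were compared by TMM-scaled log2 ratios (prior count 2) without a test. DESeq2 1.42.0, other scaling factors, no filter, prior count 0.5, a 4-fold rule and a minimum of 10 counts were the alternatives. Exon lengths and overlaps came from GENCODE vM21, which holds 41434 of the row identifiers. The fits were tested on simulated data, where 96% of 50 genes changed 4-fold in ENU lines against control were recovered and 16% at 2-fold, with 16 false calls among 13203 genes. The members, role groups and further pathway genes were chosen with earlier results of these data known. All members are accounted for, and of the further genes the 12 with the largest log2 ratios were to be named. Sars, Wars and Vars, and the grouping of synthetases, were chosen after their values were seen.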

Additional observations from a re-analysis of the deposited data

Results flagged for a closer look

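For 6 members the lines lay on opposite sides of control, each with an interval that left out a ratio of 1, and differed at least 2-fold between lines. The share of all tested genes that met this combined rule was not counted, so the number describes the members only. With 1 column of counts per line, these differences were not tested. M83 was below control and M8 above it for Nupr1 (log2 ratio of M83 to M8 -1.17), Trib3 (-1.16), Aldh1l2 (-1.12) and Creld2 (-1.07). Dnajb9 was above control in M83 and below it in M8 (1.14). M83 was below control and M32 above it for Trib3 (log2 ratio of M83 to M32 -1.38) and Atf5 (-1.07).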

How the results depend on the processing

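No member passed in edgeR or DESeq2 under the scaling, filter and leave-one-out alternatives run. Over all genes 1 passed in edgeR with each scaling and without any single line, 2 passed with no filter on low counts, and 37 passed in DESeq2. The 4-fold rule left 0 members higher in M32 and 0 lower in M83. With library size alone the M83 median moved to -0.11 over the members and to 0.27 for the chaperones, since that scaling shifts all M83 values by 0.06. With DESeq2's size factors Pdia6 in M8 turned from just above control to level, leaving 28 members higher there. With no filter the pooled log2 differences of Psph and Manf turned to -0.018 and -0.020.

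Pooled differences near 0 changed sign when single lines were left out. Their values ranged from -0.26 to 0.047 for Atf6, from -0.29 to 0.10 for Atf4, from -0.20 to 0.33 for Atf5, from -0.38 to 0.041 for Psat1, from -0.34 to 0.12 for Phgdh and from -0.12 to 0.20 for Psph. They ranged from -0.22 to 0.28 for Aldh1l2, from -0.0099 to 0.19 for Slc3a2, from -0.091 to 0.12 for Manf and from -0.0084 to 0.17 for Edem1. The sign turned without M83 for Atf6, Atf4, Psat1 and Phgdh, without M32 for Atf5, without M8 for Slc3a2 and Edem1, and without either M8 or M32 for Psph, Aldh1l2 and Manf. None of these differences passed the test, and the cause was not tested. The median over members lay between 0.09 (without M8) and 0.23 (without M83). The counts of members above control and of members lowest in M83, checked by scaling after seeing the data, moved by at most 1. No paired analysis was possible because the labels give no replicate numbers and the control is a single column.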
